A study of Rattus norvegicus with 20 samples.

Results

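The 7 genes described here encode regulators of the hepatic response to glucagon and cyclic AMP (cAMP), measured in the liver of 20 male rats: the glucagon receptor gene Gcgr, the cAMP phosphodiesterase gene Pde8b, the nuclear receptor genes Nr4a1 and Nr4a2, the kinase gene Sik1, the coactivator gene Ppargc1a and the insulin receptor substrate gene Irs2. These 7 genes, out of 14557 named by a single symbol on the array, were chosen by gene symbol for their place in this pathway and with their obese minus lean control differences already known. The rosiglitazone minus obese differences of Pde8b and Ppargc1a were known as well. Differences in those contrasts are therefore given as descriptions, without a test. Each of the 7 had 1 probe set, and all 7 exceeded their array's median in at least 5 rats, the condition for being tested, which 9481 genes met.

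The rats were Zucker diabetic fatty (ZDF) animals, a strain in which a defective leptin receptor makes homozygous carriers obese and diabetic. There were 4 groups of 5 rats, with 1 array per rat: lean controls on standard chow, obese rats on a stock diet for 6 weeks, and rats labelled rosiglitazone or resveratrol. Rosiglitazone activates the nuclear receptor PPARgamma and sensitises tissues to insulin, and resveratrol is a plant polyphenol. All rats were male, were housed singly under a reversed light cycle and ate freely. The labels state neither dose, duration nor body type for the treated rats, although the study speaks of interventions given to diabetic rats. The diets of the lean and obese rats are given in different words, so any part of diet in their differences cannot be told apart from that of body type. Feeding state and hour of tissue collection, which both affect glucagon signalling, are not stated.

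Glucagon binds its receptor on hepatocytes, and the receptor activates adenylyl cyclase through the stimulatory G protein. The cAMP that is formed releases the catalytic subunits of protein kinase A, which phosphorylate the transcription factor CREB, and CRTC coactivators then enter the nucleus and bind it. CREB induces early genes such as Nr4a1, Nr4a2, Sik1 and Ppargc1a, whose products drive gluconeogenesis or, in the case of the kinase Sik1, return CRTC to the cytoplasm. Phosphodiesterases such as the high-affinity enzyme PDE8B break cAMP down, while IRS2, also a CREB target, passes the insulin signal to phosphatidylinositol 3-kinase. In a whole tissue, fewer cells of a type and less mRNA per cell cannot be told apart.

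CREB binds the palindrome TGACGTCA or its half-site TGACG. The 250 bases before the RefSeq transcription start (build GRCr8) were searched on both strands for these letters, for the 6 members with an entry (Irs2 had none). Half-sites overlapping the palindrome were counted too. Of all 33469 promoter windows, 18.2% held the half-site and 1.59% the palindrome. The windows of Nr4a1, Nr4a2, Sik1 and Ppargc1a held at least 1 half-site, and these 4 are the early CREB targets among the members, so their sequences are shown 5′ to 3′ with the matches in capitals.
Nr4a1 (chr7:134259888-134260137, plus strand): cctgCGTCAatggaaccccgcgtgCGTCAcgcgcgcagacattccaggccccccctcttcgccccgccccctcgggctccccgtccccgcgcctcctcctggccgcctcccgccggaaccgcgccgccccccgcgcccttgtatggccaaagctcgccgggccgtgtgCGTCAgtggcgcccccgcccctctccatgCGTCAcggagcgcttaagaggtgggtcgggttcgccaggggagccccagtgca
Nr4a2 (chr3:62104888-62105137, minus strand): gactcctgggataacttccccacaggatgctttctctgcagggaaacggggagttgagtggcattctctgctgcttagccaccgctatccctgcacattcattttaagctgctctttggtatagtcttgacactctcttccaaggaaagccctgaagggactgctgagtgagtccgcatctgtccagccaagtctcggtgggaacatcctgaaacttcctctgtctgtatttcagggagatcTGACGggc
Sik1 (chr20:9958647-9958896, minus strand): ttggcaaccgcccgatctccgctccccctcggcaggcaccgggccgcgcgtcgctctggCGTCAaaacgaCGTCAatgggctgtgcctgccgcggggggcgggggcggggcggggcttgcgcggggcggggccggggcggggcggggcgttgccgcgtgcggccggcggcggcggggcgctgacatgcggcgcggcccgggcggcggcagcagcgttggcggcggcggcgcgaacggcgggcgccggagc
Ppargc1a (chr14:63634058-63634307, plus strand): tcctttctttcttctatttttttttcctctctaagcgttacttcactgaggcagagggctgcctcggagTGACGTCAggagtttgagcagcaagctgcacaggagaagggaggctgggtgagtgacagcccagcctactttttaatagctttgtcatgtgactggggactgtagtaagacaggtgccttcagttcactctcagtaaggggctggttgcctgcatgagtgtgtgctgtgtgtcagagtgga
Nr4a1 had 4 half-sites, which began 246, 226, 82 and 53 bases before the start, all on the opposite strand. Sik1 had 2, beginning 191 and 180 bases upstream, and Nr4a2 had 1, only 8 bases upstream. The palindrome was found only in Ppargc1a, 181 bases upstream. No match was found in the window of Pde8b or in the 2 windows of Gcgr. A match is a description of the letters, and RefSeq lists 1 start for most genes, so other promoters of these genes were not searched.

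Values below are log2 expression as deposited, where a difference of 1 is a 2-fold change, and levels are not compared between genes. Array medians lay between 2.36 and 2.53, and pairwise correlations between arrays ran from 0.947 to 0.982. The hepatocyte markers Alb, Ttr and 5 others averaged between 10.4 and 10.7 in every rat, and the lymphocyte (at most 1.83) and pancreatic markers (at most 2.62) lay near or below the array medians. Macrophage markers (9 genes) averaged 5.15 to 5.87 in lean, 4.91 to 5.21 in obese, 5.11 to 5.40 in resveratrol and 5.80 to 6.31 in rosiglitazone livers. Endothelial markers (5 genes) averaged 5.75 to 5.99 in lean, 5.17 to 5.47 in obese, 5.12 to 5.55 in resveratrol and 5.12 to 5.80 in rosiglitazone livers. Cholangiocyte markers (3 genes) averaged 3.19 to 3.48 in lean and 2.85 to 3.175 in obese livers, without overlap, and 3.01 to 3.57 in the treated livers. Neutrophil markers (3 genes) averaged 3.22 in rosiglitazone rat 5 and at most 2.18 in the other rats. The part of these cells in the differences below was not tested. Lean control rat 3 stood apart: of the 5 lean rats it was nearest the obese mean for 6 of the 7 genes, the exception being Pde8b (lean control rat 1). Counts and differences that this rat changed are given with and without it.

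**Figure D1:**
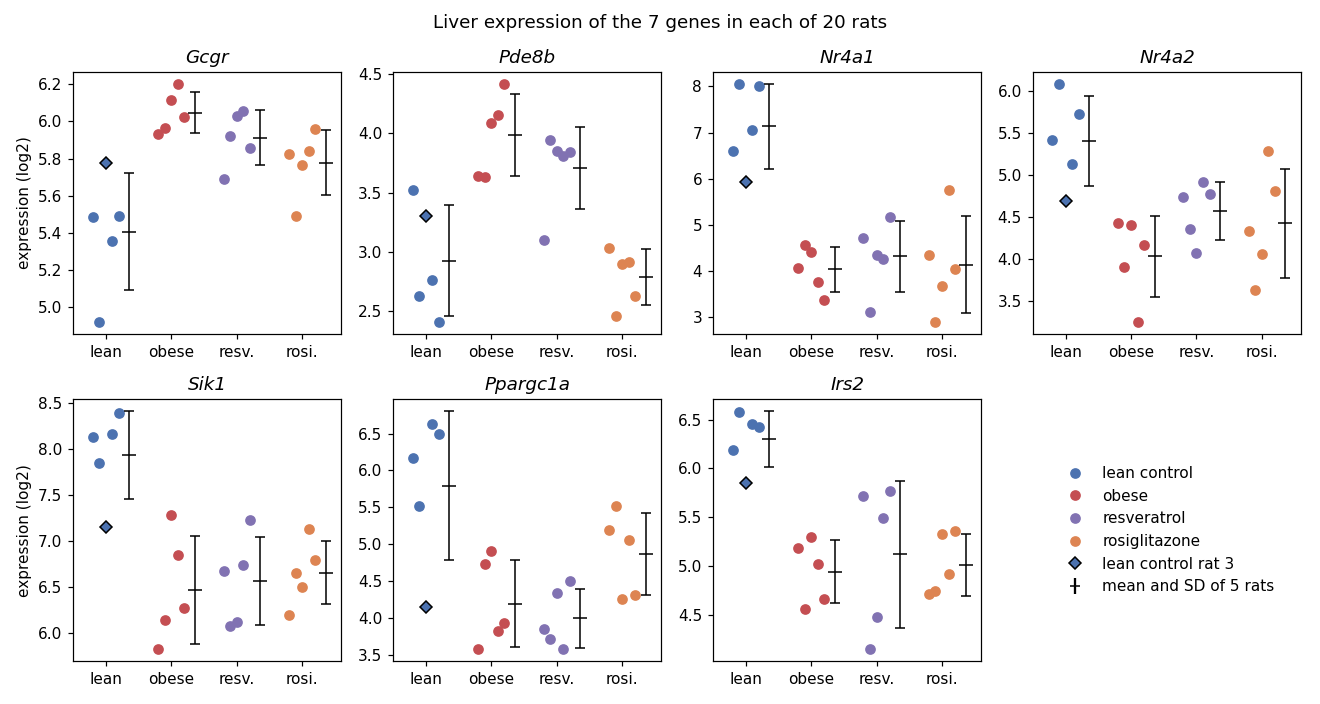
Log2 expression of each gene (vertical axis, own scale per panel) in 5 rats of each of 4 groups (horizontal axis), with the group mean and SD as a bar at the right of each group and lean control rat 3 as an outlined diamond. Nr4a1, Nr4a2, Sik1, Ppargc1a and Irs2 were on average lower in obese than in lean livers, Gcgr and Pde8b were higher, and Pde8b was low again in all 5 rosiglitazone livers.

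The receptor gene Gcgr was higher in obese livers. Its values were 5.49, 4.92, 5.78, 5.36 and 5.49 in lean control rats 1 to 5 and 5.93, 5.97, 6.11, 6.20 and 6.02 in obese rats 1 to 5. Every obese rat lay above every lean rat, and the obese rats were the tightest group (SD 0.11, against 0.31 in lean rats). The difference was 0.64 (SE 0.13), a 1.56-fold higher level. Resveratrol livers read 5.69, 5.92, 6.03, 6.06 and 5.86, and rosiglitazone livers 5.83, 5.49, 5.77, 5.84 and 5.96. Group means fell in the order obese (6.05), resveratrol (5.91), rosiglitazone (5.78) and lean control (5.41), and every neighbouring pair in that order overlapped. Without lean control rat 3 the obese minus lean difference was 0.73, and without lean control rat 2, the lowest of all 20 rats, it was 0.52.

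Pde8b, which encodes a high-affinity cAMP phosphodiesterase, was the member on which the rosiglitazone group departed from the obese group. Lean control rats 1 to 5 read 3.52, 2.63, 3.30, 2.76 and 2.41, and obese rats 1 to 5 read 3.64, 3.63, 4.09, 4.15 and 4.42. The groups did not overlap, although lean control rat 1 (3.52) came close to obese rat 2 (3.63), and the difference was 1.06 (SE 0.21, 2.09-fold). Rosiglitazone livers read 3.03, 2.46, 2.90, 2.92 and 2.63, which is below every obese rat and inside the lean range. Their mean, 2.79 ± 0.23 (SD, n = 5), differed by −1.20 (SE 0.21) from the obese mean and by −0.14 (SE 0.21) from the lean mean of 2.93 ± 0.47. Resveratrol livers read 3.10, 3.95, 3.85, 3.81 and 3.84, and 4 of these 5 rats lay above every lean rat while resveratrol rat 1 lay within the lean range. The lean and rosiglitazone values come close to the array medians, and without a detection call the folds of this gene are uncertain.

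The comparison of the 2 treated groups shares no array with the obese against lean contrast. There Pde8b was lower with rosiglitazone in a complete separation of 5 and 5 rats, by 0.92 on the log2 scale (SE 0.21, 95% interval −1.35 to −0.49, limma adjusted p = 0.0345 over 9481 genes). The low rosiglitazone values themselves were known beforehand from the contrast with obese livers, so this is not independent of them. Leaving out 1 rat at a time gave differences between −1.07 and −0.84 and adjusted p between 0.0143 and 0.0962, and the call was lost in 9 cases, without any of the rosiglitazone rats or without resveratrol rat 2, 3, 4 or 5. In this comparison 84 of 9481 genes were called (0.886%), and 1 of the 7 members was. Groups did not overlap for 3.34% of all genes and for 1 of 7 members, again Pde8b.

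Nr4a1, an orphan nuclear receptor that CREB induces within the first hour of a stimulus and that promotes gluconeogenic gene expression, had the largest difference of the 7 genes. Lean control rats 1 to 5 read 6.60, 8.06, 5.94, 7.06 and 8.02, against 4.07, 4.56, 4.41, 3.77 and 3.37 in the obese rats. Even the lowest lean rat, number 3, was well above the highest obese rat. The means were 7.13 ± 0.92 and 4.04 ± 0.48 (SD, n = 5), a difference of −3.10 (SE 0.46), or 8.56-fold. Neither treated group reached the lean range: resveratrol livers read 4.71, 3.11, 4.36, 4.25 and 5.16, and rosiglitazone livers 4.34, 2.89, 3.68, 5.75 and 4.04. The treated minus lean differences were −2.82 for resveratrol and −2.99 for rosiglitazone (SE 0.46 for both). The order of the other 3 groups is not resolved, since their means lay between 4.04 and 4.32 while their SDs were 0.48 to 1.05.

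Nr4a2, a second member of this receptor family, differed in the same direction by less. Its values were 5.42, 6.09, 4.69, 5.13 and 5.72 in lean control rats 1 to 5 and 4.43, 3.90, 4.40, 3.24 and 4.17 in obese rats 1 to 5. The groups did not overlap and the means differed by −1.38 (SE 0.29, 2.61-fold). Resveratrol livers (4.73, 4.35, 4.07, 4.91 and 4.77) and rosiglitazone livers (4.33, 3.63, 4.05, 5.29 and 4.81) lay between, and each overlapped both the obese and the lean range. The resveratrol mean was 0.54 above the obese mean (SE 0.29, 95% interval −0.06 to 1.15).

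Sik1, the kinase that switches CRTC coactivation off again, read 8.12, 7.85, 7.15, 8.16 and 8.38 in lean control rats 1 to 5. Obese rats 1 to 5 read 5.82, 6.14, 7.28, 6.84 and 6.26. The means differed by −1.47 (SE 0.27, 2.76-fold), and the ranges overlapped only because lean control rat 3 lay below obese rat 3. Resveratrol livers read 6.67, 6.07, 6.12, 6.73 and 7.22 and rosiglitazone livers 6.20, 6.65, 6.50, 7.12 and 6.79. All rosiglitazone livers were below all lean livers, and the obese, resveratrol and rosiglitazone means (6.47, 6.56 and 6.65) did not differ beyond their SDs of 0.34 to 0.59.

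Ppargc1a encodes PGC-1alpha, the coactivator that raises gluconeogenic and mitochondrial gene expression in the fasted liver. Its lean values were 6.17, 5.53, 4.15, 6.63 and 6.50, and its obese values 3.58, 4.74, 4.91, 3.83 and 3.94. Lean control rat 3 lay inside the obese range, and the other 4 lean rats lay above it. The difference of the means was −1.60 (SE 0.38, 3.02-fold) with all rats and −2.01 without lean control rat 3. Rosiglitazone livers read 5.19, 5.52, 4.27, 5.06 and 4.32, on average 0.67 above obese livers (SE 0.38), with a difference of −0.92 from lean livers. Resveratrol livers read 3.85, 3.72, 4.33, 3.58 and 4.50, within the obese range. Rosiglitazone livers were 0.87 above resveratrol livers (SE 0.38, 95% interval 0.09 to 1.66), which did not pass (limma adjusted p = 0.350), and the groups overlapped.

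Irs2, the docking protein through which the insulin receptor acts on hepatic glucose output, was tight within the lean, obese and rosiglitazone groups. Lean control rats 1 to 5 read 6.19, 6.58, 5.85, 6.45 and 6.42, and obese rats 1 to 5 read 5.19, 4.55, 5.30, 5.01 and 4.66. The groups did not overlap, and the means of 6.30 ± 0.29 and 4.94 ± 0.33 (SD, n = 5) differed by −1.36 (SE 0.26, 2.56-fold). Rosiglitazone livers (4.71, 4.74, 5.32, 4.91 and 5.36) stayed at the obese level. Resveratrol livers spread more widely (5.71, 4.14, 4.47, 5.49 and 5.76, SD 0.75), and none reached the lowest lean rat. The 3 lower group means lay between 4.94 and 5.12.

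**Figure D2:**
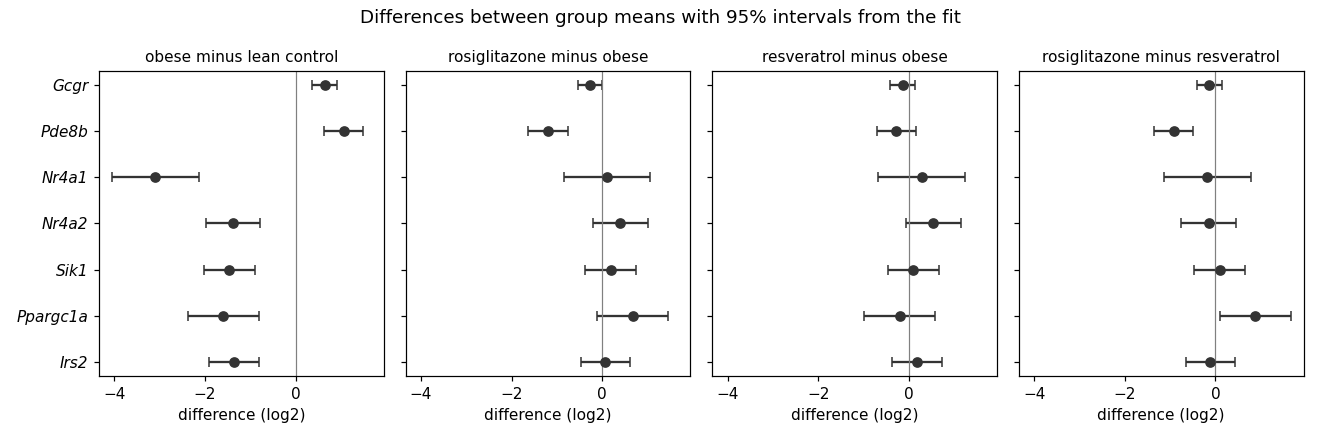
Differences of group means in log2 units (horizontal axis) for the 7 genes (rows) in 4 comparisons (panels), with 95% intervals from the fit. Obese minus lean control differences run from −3.10 for Nr4a1 to 1.06 for Pde8b, and in the comparison of rosiglitazone with resveratrol only the intervals of Pde8b and Ppargc1a leave out 0.

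Counted over the comparisons, lean and obese livers did not overlap for 5 of 7 members (3 lower and 2 higher in obese livers) against 3.53% of all genes tested, a count that the choice of members fixed. Without lean control rat 3 all 7 were separated, against 8.71% of all genes. That rat was singled out by the same values, so this count is not independent of the choice either. Of all genes, 172 (1.81%) were called between obese and lean livers. Rosiglitazone and lean livers did not overlap for 3 members, Nr4a1, Sik1 and Irs2, all lower with rosiglitazone (3.25% of all genes). Resveratrol and lean livers did not overlap for 2, Nr4a1 and Irs2 (4.59% of all genes). Without lean control rat 3 these counts were 4 of 7 for rosiglitazone, with Ppargc1a added (6.11% of all genes), and 6 of 7 for resveratrol, with Nr4a2, Sik1 and Ppargc1a lower and Gcgr higher than in lean livers (9.99% of all genes). These comparisons share the lean arrays, and the counts without lean control rat 3 are descriptions for the same reason. Rosiglitazone and obese livers did not overlap for 1 member, Pde8b (3.91% of all genes), in a comparison with 142 genes called (1.5%).

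Resveratrol and obese livers overlapped for every member, where 1.18% of all genes did not. None of the 7 was called by limma, with differences from −0.28 for Pde8b to 0.54 for Nr4a2 and adjusted p of 0.925 or more. No member had an unadjusted p under 0.05, and Nr4a2 had the smallest (0.0770). Over all genes 1 was called (0.0105%) and 505 had an unadjusted p under 0.05. The intervals still admit differences: for Nr4a1 the 95% interval ran from −0.67 to 1.24, while for Gcgr it ran from −0.41 to 0.14. The obese arrays here are those of the contrast by which the genes were chosen. Between rosiglitazone and resveratrol, the 5 members other than Pde8b and Ppargc1a differed by −0.18 to 0.09 with adjusted p of 0.758 or more.

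Around these 7 genes, 7 lists were counted, which hold 173 other genes of the pathway, 114 of them tested. Between obese and lean livers 2 of the 114 were called, both lower (1.75%, near the 1.81% of all genes), and both stood on the list of 20 tested cAMP target genes. Got1, the cytosolic aspartate aminotransferase, fell by 1.51 (7.46 ± 0.53 in obese against 8.97 ± 0.61 in lean livers, SE 0.32, limma adjusted p = 0.0216). Slc38a2, a transporter of neutral amino acids, fell by 1.20 (7.87 ± 0.48 against 9.07 ± 0.67, SE 0.27, limma adjusted p = 0.0250). Of the 20 targets, 16 had a difference below 0, with a median of −0.41 against 0.003 over all genes. The lists were written with earlier results of these data known, so counts of direction within them are descriptions. The classical targets Pck1, Tat and Igfbp1 were not called. G6pc1 and Crem had no probe set with that symbol alone and were not analysed. Pck1, which encodes phosphoenolpyruvate carboxykinase, read 10.3 in obese and 10.5 in lean livers (difference −0.12, SE 0.09, adjusted p = 0.550). Tat, tyrosine aminotransferase, differed by −0.50 (adjusted p = 0.0749) and the insulin-repressed Igfbp1 by −0.60 (adjusted p = 0.155), and neither was called.

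Immediate-early genes, which are induced within minutes by many signals, had no call among 18 tested between obese and lean livers, although 16 differences lay below 0 (median −0.42). Fos was at 4.06 ± 0.93 in obese and 4.96 ± 0.51 in lean livers (adjusted p = 0.208), and Egr1 at 7.73 ± 0.69 and 8.25 ± 1.25 (adjusted p = 0.625). Among these genes 17 of 18 also lay below 0 for rosiglitazone minus resveratrol (median −0.50), again with none called. Nr4a1 and Nr4a2, which belong to the same functional class, differed there by only −0.18 and −0.15.

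Upstream of these genes no call was made between obese and lean livers. The 25 tested receptors, G proteins, cyclases and kinase subunits had a median difference of −0.07. The catalytic subunit gene Prkaca differed by 0.03 (adjusted p = 0.932), and Gnas, the stimulatory G protein, was near the array median (2.39 in obese livers). Among 16 CREB regulators none was called, with Creb1 at −0.11 and Crtc2 at 0.10 (adjusted p = 0.719 and 0.809). The 10 other phosphodiesterases had a median of −0.12 and none was called: Pde8a, the paralog of Pde8b, differed by 0.10 (adjusted p = 0.718), Pde4d by −0.07 (adjusted p = 0.821) and Pde3b, which insulin activates, by −0.29 (adjusted p = 0.440). No call was made among 18 insulin signalling genes either, where Irs1, the other main receptor substrate, differed by −0.36 (adjusted p = 0.339), Insr by 0.14 (adjusted p = 0.549) and Foxo1 by 0.20 (adjusted p = 0.531).

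With rosiglitazone 1 gene of the 114 was called, Prkar2a, the RII alpha regulatory subunit that binds and restrains the protein kinase A catalytic subunit. It read 7.43 ± 0.16 in rosiglitazone livers, 6.64 ± 0.18 in obese and 6.89 ± 0.18 in resveratrol livers (SD, n = 5). All 5 rosiglitazone livers lay above all obese livers (difference 0.79, SE 0.12, limma adjusted p = 0.00110) and above all resveratrol livers (0.55, SE 0.12, limma adjusted p = 0.0303). The call against resveratrol was lost without rosiglitazone rat 1, 3 or 5 or resveratrol rat 1, 2, 3 or 5, which left 0 listed genes called. Obese and lean livers differed by 0.06 for this gene (adjusted p = 0.850). Both rosiglitazone counts (0.877% of the list genes) were near or below the share of all genes called. Resveratrol against obese livers had no call among the 114.

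**Figure D3:**
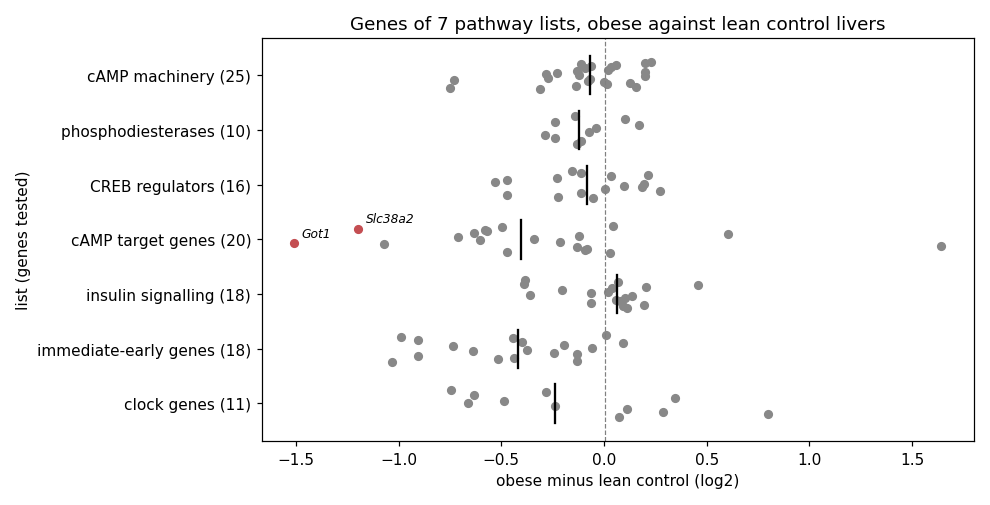
Obese minus lean control differences in log2 units (horizontal axis) of the tested genes of 7 pathway lists (rows), with the list median as a black bar, the median of all genes as a dashed line and called genes in red. Got1 and Slc38a2 are the only called genes, and the medians of the cAMP target (−0.41) and immediate-early lists (−0.42) lie farthest below the dashed line.

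These counts depended on lean control rat 3, which was singled out by the members' own values in lean and obese livers. Counts without this rat are therefore descriptions, and no conclusion about the lists is drawn from them. Without it 11 of the listed genes were called between obese and lean livers, and 518 of 9433 genes overall (5.49%). Of the 20 cAMP target genes 8 were then called (40%), 7 of them lower: Slc38a2 (−1.50, adjusted p = 0.000524), Got1 (−1.77, adjusted p = 0.00184), Lpin1 (−0.88), Tat (−0.56), Per1 (−0.81), Cebpb (−0.57) and Gadd45b (−1.30). The eighth, Fgf21, a hepatokine that PPARalpha also induces, was 1.94 higher in obese livers (adjusted p = 0.0145). Myc (−1.13) and Ier3 (−1.03) among the immediate-early genes and the adrenergic receptor gene Adrb1 (−0.77) were also called. Leaving out lean control rat 1, 2 or 4 instead left 0 listed genes called, leaving out lean control rat 5 or obese rat 1, 2 or 5 left 1, and leaving out obese rat 4 or rosiglitazone rat 5 gave 4.

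Expression of 8 clock genes was summarised as a score (mean standardised level of Bmal1 and 4 others minus that of Dbp, Per2 and Per3). With the hour of collection not stated, this score is not a measure of the time of day. It spread widely within every group, from −2.03 to 1.30 in lean, −1.35 to 2.67 in obese, −1.19 to 3.15 in resveratrol and −1.41 to 2.86 in rosiglitazone livers. The medians were −1.43, 0.08, −0.18 and 0.40 in that order. Lean control rats 1, 4 and 5 (−1.43, −2.03 and −1.82) lay below every other rat. Within groups the score correlated with Ppargc1a at r = −0.63, with Irs2 at 0.44 and with Nr4a2 at 0.40 over 20 rats, and with the other 4 genes at between −0.23 and 0.11. These correlations are descriptions. In a fit with the score as a covariate, Ppargc1a differences from lean livers shrank: obese minus lean was −1.37 in place of −1.60, resveratrol minus lean −1.51 in place of −1.80, and rosiglitazone minus lean −0.61 in place of −0.92. Obese minus lean differences of Nr4a2 (−1.50) and Irs2 (−1.47) were larger in that fit.

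Rats were then compared within groups, which the choice of the genes did not use. Deviations from the group means were correlated over 20 rats for the 21 pairs of members, with 100000 permutations within groups. Without further adjustment, the highest correlation was that of the receptors Nr4a1 and Nr4a2 (Pearson r = 0.72, permutation p = 0.00199, adjusted over 21 pairs 0.0418). Spearman's rho was 0.64 (permutation p = 0.00757, adjusted 0.0940), and without the 2 rats farthest out for Nr4a1, rosiglitazone rats 2 and 4, r was 0.57. Leaving out 1 rat gave r from 0.63 to 0.76, and the call was lost in 12 of 20 cases (the highest adjusted p, 0.138, was without lean control rat 3). The sign was positive in all 4 groups, with r between 0.22 in obese and 0.92 in rosiglitazone livers. Next came Sik1 and Irs2 (r = 0.61, rho = 0.59, permutation p = 0.00865 and 0.0115, adjusted 0.0908 and 0.0940), also positive in all 4 groups, and with r = 0.55 without lean control rat 3 and obese rat 3. This pair passed without obese rat 1 (r = 0.73, adjusted permutation p = 0.0219). Gcgr and Pde8b varied together at r = 0.55 (rho = 0.48, permutation p = 0.0350 and 0.0594, adjusted 0.108 and 0.184), positive in all 4 groups, with r = 0.50 without lean control rats 2 and 3. The 10 pairs that join Gcgr or Pde8b to another member all had r below 0, from −0.38 to −0.03, and none passed. Only Irs2 and Pde8b had r below 0 in all 4 groups. The others changed sign between groups: Nr4a2 and Gcgr had r = −0.83 in lean and 0.78 in rosiglitazone livers. Sik1 and Gcgr had r = −0.34 in lean and 0.84 in obese livers. Of the 10 pairs, 4 turned positive when 1 rat was left out. With the clock score as a covariate the order changed and 3 pairs passed in place of 1: Sik1 and Irs2 (r = 0.81, adjusted permutation p = 0.00714), Nr4a1 and Nr4a2 (r = 0.74, adjusted permutation p = 0.0111) and Nr4a1 and Ppargc1a (r = 0.59, adjusted permutation p = 0.0301). Ppargc1a and Irs2 went from r = 0.05 to 0.47 (adjusted permutation p = 0.109).

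**Figure D4:**
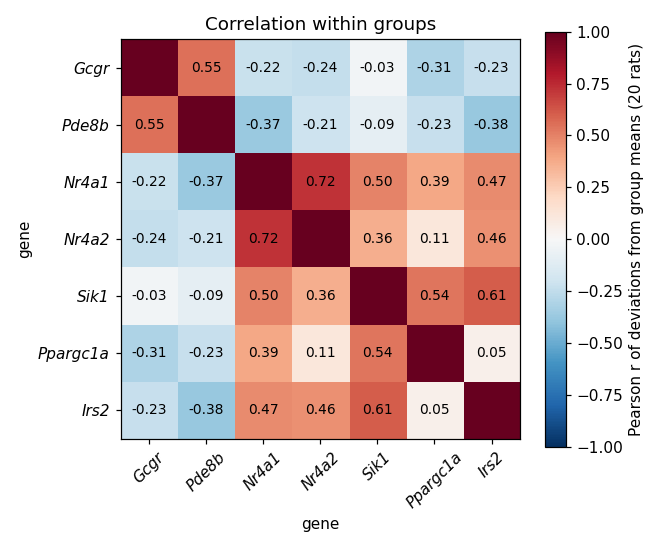
Pearson r of the deviations from group means over 20 rats for every pair of the 7 genes, on a colour scale from −1 to 1 with the value in each square. The squares among Nr4a1, Nr4a2, Sik1, Ppargc1a and Irs2 run from 0.05 to 0.72, Gcgr and Pde8b reach 0.55, and all squares joining these 2 sets are below 0. Of the joining pairs, only Irs2 and Pde8b was below 0 in every group taken alone.

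For each member, the tested genes with the most similar values over the 20 rats were listed, which includes the differences between groups. The members themselves were left out of this search, as were symbols beginning with LOC, RGD, Vom, Olr or Mir. Chac1, an enzyme of glutathione breakdown, was the nearest gene for Nr4a1 (r = 0.87), Nr4a2 (0.84) and Irs2 (0.89). For Sik1 it was Slc38a2 (r = 0.92, and 0.81 on deviations from group means), followed by the growth factor signalling inhibitor Spry2 (0.88) and Coq10b (0.87). For Ppargc1a it was Got1 (0.92, and 0.81 within groups), followed by the small GTPase Rnd2 (0.88) and the phosphatase gene Ctdspl (0.87, and 0.86 within groups). Gcgr was closest to Srebf1, the lipogenic transcription factor (r = 0.93, and 0.90 within groups), then to the serpin gene Serpina4 (0.89) and the fructose-metabolising triokinase Tkfc (0.86). Pde8b was closest to Mob3b (0.86, and 0.71 within groups), the kinetochore gene Spc24 (0.84, and 0.60) and the thioesterase gene Lypla1 (0.81, and 0.51). The remaining neighbours were Pvr (0.86) and Il1a (0.85) for Nr4a1, Slc1a4 (0.81) and Ywhaz (0.79) for Nr4a2, and Ywhaz (0.83) and Slc38a2 (0.83) for Irs2. These r values are the highest among the genes searched and carry no test. Each was lower on deviations from group means, where r ran from 0.51 (Pde8b and Lypla1) to 0.90 (Gcgr and Srebf1).

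**Figure D5:**
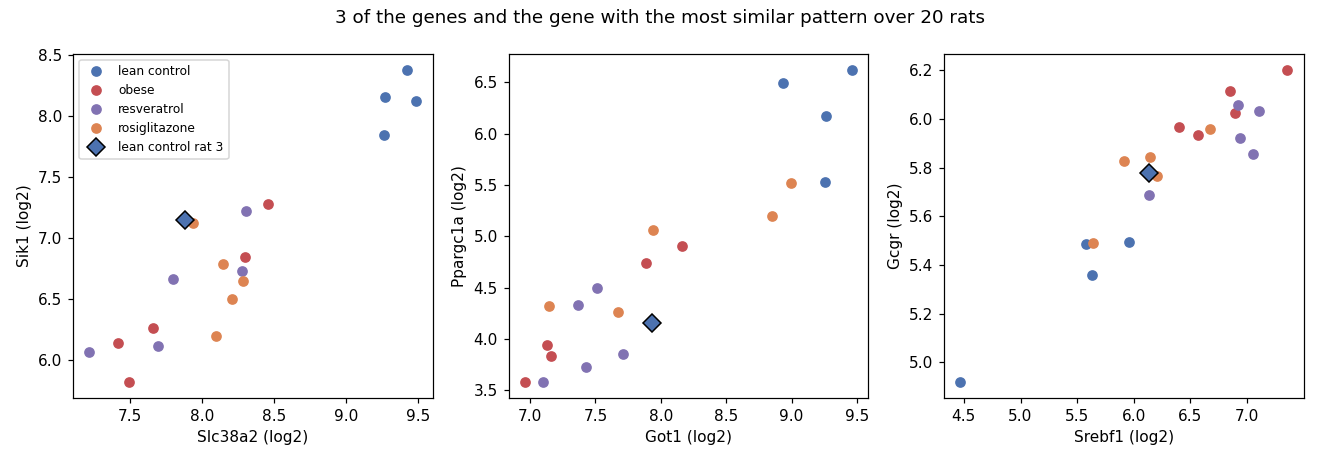
Log2 values of Sik1, Ppargc1a and Gcgr (vertical axes) against Slc38a2, Got1 and Srebf1 (horizontal axes), 1 point per rat coloured by group, with lean control rat 3 as an outlined diamond. Values rise together in each panel (r = 0.92, 0.92 and 0.93), lean control rat 3 lies among the rats of the other groups in all 3, and lean control rat 2 lies apart at the low end of the Gcgr panel.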

How the data were processed

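Liver RNA of 20 rats was hybridised to Affymetrix Rat Gene arrays. Log2 values of 36685 probe sets were deposited, computed by the authors with RMA (background correction, quantile normalisation, probe summary). RMA version and genome build: not given in the sources used here. Symbols came from the platform annotation. Of 14557 genes with a single symbol, each represented by its probe set with the highest mean, 9481 lay above the array's percentile 50 in at least 5 arrays. A single limma 3.58.1 fit (R 4.3.3) held all 20 arrays (16 residual degrees of freedom), with two-sided moderated tests and Benjamini-Hochberg adjustment over all genes tested, called under 0.05. The fit was tested on simulated data.

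The members and lists were chosen with earlier results of these data known. From each list every called gene was named, up to 6, and a set of its best known genes, of which G6pc1, Nr4a3, Crem and Pde4b were not analysed here. For likeness, the 3 genes with the highest Pearson r were named, with the members and symbols beginning with LOC, RGD, Vom, Olr or Mir left out. Genes named as called without lean control rat 3 were chosen after their values were seen. Alternatives were other filters, quantile normalisation repeated, median centring, only the compared groups, a mean-variance trend, array weights, replicate block, mean of probe sets, a clock score, thresholds and leaving out each rat. Counts of listed genes, the treated minus lean control differences and group overlap without lean control rat 3 were added to these after seeing the data. The labels call the 5 rats of a group biological replicates. No detection call was used, and precision is limited by the number of arrays. Correlations and figures used numpy 2.4.6, scipy 1.17.1 and matplotlib 3.10.9 in Python 3.11.15.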

Additional observations from a re-analysis of the deposited data

Results flagged for a closer look

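Pde8b in resveratrol livers was picked out by 1 rat: resveratrol rat 1 (3.10) lay below the other 4 (3.81 to 3.95), and its gap to the nearest of them was 0.841 of the group's range, above the 95% critical value for 5 samples. Among 28 groups of values examined (7 genes in 4 groups) this was the only one, and chance gives about 1 in 20. Without this rat the rosiglitazone minus resveratrol difference of Pde8b was −1.07 (limma adjusted p = 0.0143), against −0.92 (adjusted p = 0.0345) with all rats. The rat was singled out by its low Pde8b value, so leaving it out had to widen this difference, and no conclusion is drawn from that fit. Leaving out other rats gave limma adjusted p up to 0.0962. The resveratrol minus obese difference without resveratrol rat 1 was −0.12.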

How the results depend on the processing

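The obese minus lean, rosiglitazone minus obese and treated minus lean control differences of the 7 genes moved by less than their within-group SD under every alternative run, though rosiglitazone minus lean control Ppargc1a was −0.61 with the clock score as covariate (−0.92 without), and Pde8b could not be tested with the filter at percentile 75. For obese against lean livers, the count of genes called was 172, and it was 290 with that filter, 27 with only the groups compared, 11 at an adjusted p under 0.01 and 59 to 518 when 1 rat was left out (the highest without lean control rat 3, the lowest without lean control rat 4). The count of listed genes called there, 2, became 5 with the percentile 75 filter, 1 with only the groups compared, 4 with a mean-variance trend, array weights or the clock score as covariate, 0 at an adjusted p under 0.01, and 0 to 11 without 1 rat. For rosiglitazone against obese livers the 142 calls became 44 at an adjusted p under 0.01 and 71 to 162 without 1 rat, and the listed genes called ranged from 1 to 3. For resveratrol against obese livers 1 to 2 genes were called without 1 rat. For rosiglitazone against resveratrol the 84 calls became 27 at an adjusted p under 0.01 and 43 to 105 without 1 rat. Prkar2a, the 1 listed gene called there, was lost (0 called) with arrays centred on their median, only the groups compared, the replicate block, an adjusted p under 0.01 or a fold change of at least 1.5, and 0 to 1 were called without 1 rat. The cause was not tested.

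Same-numbered rats did not deviate together (mean r −0.02, 5 of 30 pairs over 0.1), so the numbers were not taken as pairs. With the replicate block the rosiglitazone minus resveratrol difference of Pde8b was −0.92 with an adjusted p of 0.0562, no longer past the threshold; without 1 rat it ran from −1.07 to −0.84. Differences near 0 turned sign without 1 rat: resveratrol minus obese for Sik1 (−0.0720 to 0.297), rosiglitazone minus obese for Nr4a1 (−0.30 to 0.41) and Irs2 (−0.03 to 0.16), rosiglitazone minus lean control for Pde8b (−0.27 to 0.01), and rosiglitazone minus resveratrol for Nr4a1 (−0.58 to 0.13), Nr4a2 (−0.364 to 0.0524), Sik1 (−0.0330 to 0.256) and Irs2 (−0.354 to 0.0520). Within groups, r for Nr4a1 and Nr4a2 ran from 0.63 to 0.76 without 1 rat, with adjusted p up to 0.138 (without lean control rat 3). Pairs that turned sign were Nr4a2 and Gcgr (−0.495 to 0.0147), Nr4a2 and Ppargc1a (−0.22 to 0.26), Sik1 and Gcgr (−0.10 to 0.27), Sik1 and Pde8b (−0.218 to 0.0494), Ppargc1a and Irs2 (−0.19 to 0.11) and Ppargc1a and Gcgr (−0.523 to 0.0626). Values near the array median limit the folds of Pde8b.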
